A study of Homo sapiens with 8 samples.

Results

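The genes described here encode the structural proteins of the extracellular matrix, namely collagens, laminin chains, the linkers of basement membranes, fibronectin, fibrillins, thrombospondins and other matrix glycoproteins. The 44 members were chosen as a gene family and matched by symbol to 44 of the 58688 gene identifiers in the count files. A member was kept when it had at least 10 counts in 1 of the 8 samples, which held for 38 of the 44. The dropped members were COL4A3, NID1, FBN2, BGN, VCAN and LUM, the last 3 of which encode the proteoglycans biglycan, versican and lumican.

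Collagens are triple helices of protein chains. Fibrillar collagens such as type I form the cable-like fibrils of connective tissue, whereas type IV collagen forms the sheet of the basement membrane, the thin matrix on which epithelial cells rest. Laminins are heterotrimers of an alpha, a beta and a gamma chain that assemble beside type IV collagen and are bound by integrins. In breast tissue the basement membrane separates the epithelium from the stroma, and carcinoma cells both cross it and secrete matrix of their own. Thrombospondin 1 and SPARC are matricellular proteins, which are secreted into the matrix and act on cells without building fibrils.

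LM2 is a lung-metastatic derivative of MDA-MB-231, a human triple-negative breast cancer cell line. In 1 experiment LM2 cells received DMSO, the solvent control, or 1 µmol/L Ponatinib, an inhibitor of ABL and other tyrosine kinases, for 6 h, with 2 samples in each group. In the other experiment stable lines carried lentiviral scrambled shRNA, ABL1 shRNA, ABL2 shRNA or ABL1/ABL2 shRNA, with 1 sample in each group, an infection of 48 h in Polybrene and puromycin selection according to the methods of the study. No source states whether the repeats of the drug experiment were separate cultures, so their p-values measure only the spread between these samples, which may be technical. The shRNA lines have no replicates, and all 3 knockdowns share the scrambled shRNA sample.

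Total counts on genes ranged from 7568934 to 13010896 per sample, so that 3 counts corresponded to 0.231 to 0.396 CPM, the counts scaled to a common library size. The targeted genes followed the labels. ABL1 was at 190.1 normalized CPM with scrambled shRNA and at 72.84, 202.8 and 109.5 with ABL1, ABL2 and both shRNAs, and ABL2 was at 236.5, 212.7, 93.61 and 147.9 in the same order. The files of the scrambled shRNA and ABL1 shRNA samples carry each other's condition in their header cells, but ABL1 was lowest in the library labelled ABL1 shRNA. The 6 markers of basal breast cancer lines, VIM, CD44, EGFR, S100A4, AXL and CAV1, each had at least 10 counts in every sample and summed to 3644 to 6032 CPM. The 6 fibroblast markers summed to 1.825 to 2.786 CPM in DMSO, 5.478 to 6.474 in Ponatinib and 7.408 to 9.071 in the shRNA samples. Of the 6, PDGFRB had 17 to 106 counts, and the other 5, PDGFRA, DCN and LUM among them, stayed under 10 counts in every sample. The 6 luminal markers summed to 61.34 to 79.01 CPM, with ERBB2 at 515 to 826 counts, GATA3 at 74 to 99 and PGR at 0 throughout. The 5 leukocyte markers summed to 0.8955 to 7.658 CPM, with CD14 at 6 to 87 counts. The 5 endothelial markers summed to 11.12 to 11.44 CPM in DMSO, 7.88 to 8.059 in Ponatinib and 26.96 to 44.63 in the shRNA samples, mostly through PECAM1 at up to 499 counts, and their part in the results below was not tested.

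Among the 44 members, a laminin chain and a type VI collagen chain, not a fibrillar collagen, had the highest levels per kb in DMSO-treated LM2 cells. LAMB3 stood at 147.6 and 150.4 normalized CPM per kb of annotated exon in the 2 DMSO samples, and COL6A1 at 67.29 and 71.53. Outside the members, CYR61 (345 and 340.6), SRGN (222.7 and 215.4) and CTGF (197.6 and 184.2), from the lists of other matrix genes, stood higher than LAMB3. LAMB3 encodes the beta chain of laminin-332, the laminin of epithelial attachment, and COL6A1 a chain of the beaded filaments of type VI collagen. SPARC, LAMC1, COL13A1, LAMB2, THBS1 and LAMA5 followed between 34.42 and 56.45 normalized CPM per kb. The DMSO values of several neighbours in this order lay within each other's range, LAMC1 with COL13A1 and THBS1 with LAMA5 among them. COL1A1, the fibrillar collagen with the highest level per kb, was at 64.17 and 62.38 normalized CPM before division by length, but its partner chain COL1A2 had 3 and 1 counts and COL3A1 had 0 counts in both. Type I collagen is normally built from a pair of COL1A1 chains and a COL1A2 chain. Per kb, COL1A1 exceeded COL1A2 by 116-fold to 739-fold over the 8 samples, a range that rests on 1 to 18 COL1A2 counts.

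**Figure D1:**
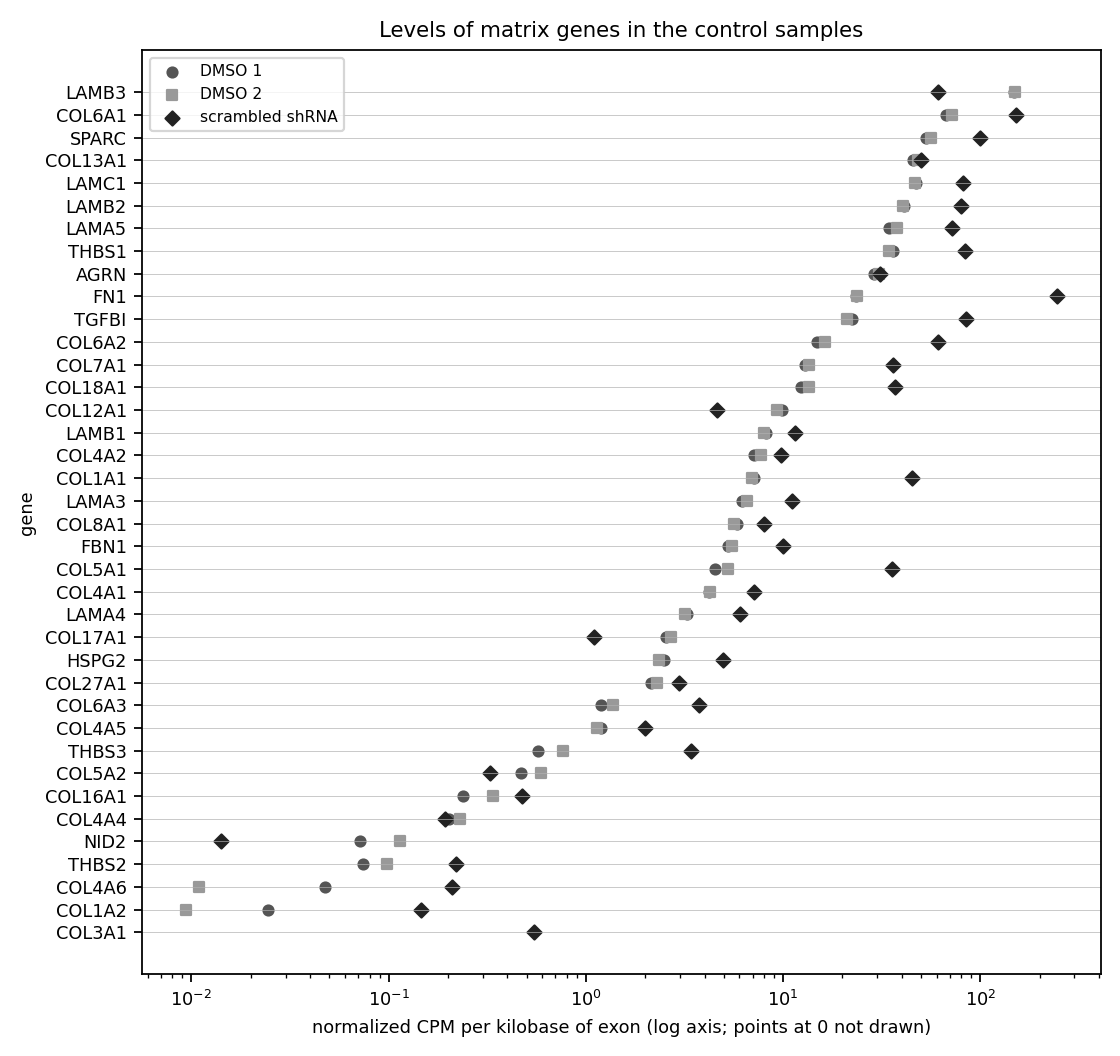
Normalized CPM per kilobase of exon (log axis) of the 38 kept members in the DMSO samples (circle and square) and the scrambled shRNA sample (diamond), ordered by the DMSO mean, with values of 0 not drawn. LAMB3 leads in DMSO and FN1 in scrambled shRNA, and the 2 experiments were normalized separately.

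The first comparison asked how the mRNA of these genes responded to 6 h of Ponatinib. THBS1 fell most, to 0.44 times its DMSO level, followed by COL5A2, the membrane-spanning collagens COL17A1 and COL13A1, COL8A1, COL27A1, SPARC and LAMB3. COL7A1, the collagen of anchoring fibrils, rose most, with smaller rises in FBN1, COL1A1, COL12A1, COL5A1, LAMB2, FN1 and LAMA3. The tested chains of type IV collagen (COL4A1, COL4A2, COL4A4 and COL4A5) and type VI collagen did not pass the test. In RNA from whole cultures, fewer expressing cells and less RNA per cell cannot be told apart. Of the 33 members with enough counts, 18 (54.5%) were called at an adjusted p under 0.05, 9 lower and 9 higher, against a background of 30.7% of the 16031 genes tested (15.7% lower and 15.0% higher). Higher counts make a call easier, and among genes with a mean of at least 100 counts the shares were 17 of 29 members (58.6%) and 38.6% of all genes. Members went both ways, and the median log2 fold change was -0.06 over the 33 members and -0.0047 over all genes. The thresholds of the study for DEGs, a P under 0.05 before adjustment together with more than 2-fold change, were passed by THBS1 alone and by 5.48% of all genes (2.29% lower and 3.19% higher). The groups of 2 did not overlap for 27 of the 33 members and for 64.9% of all genes.

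The call of a small change depended on the DMSO samples. With DMSO 1 left out 11 members were called and with DMSO 2 left out 10, and the number called higher went from 9 to 3 in either case. THBS1, COL13A1, LAMB3, COL8A1, COL27A1, COL17A1, SPARC and COL7A1 were the 8 members called under all 11 alternative settings, so that COL7A1 was the only rise among them. The 15 members that were tested but not called had log2 fold changes from -0.26 to 0.38.

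**Figure D2:**
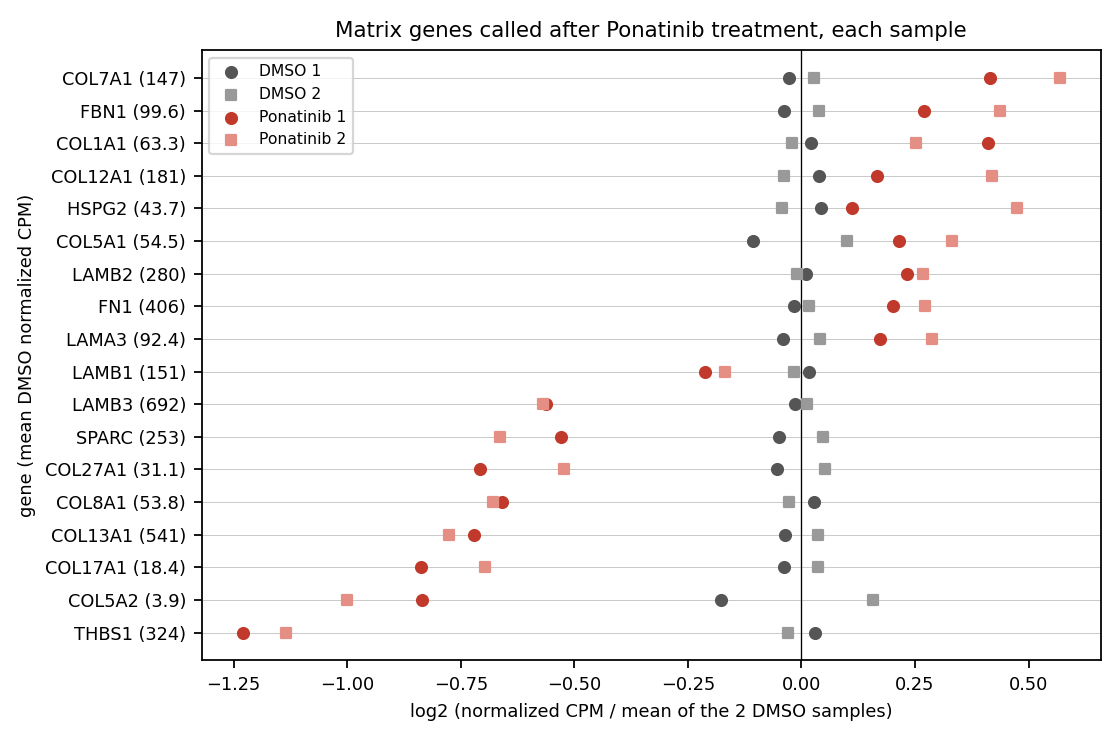
Level of each of the 18 called members in the DMSO samples (grey) and Ponatinib samples (red), as the log2 ratio of normalized CPM to the mean of the 2 DMSO samples, with that mean in parentheses. THBS1 lies furthest to the left and COL7A1 furthest to the right, and no DMSO sample overlaps a Ponatinib sample for any of the 18.

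**Figure D3:**
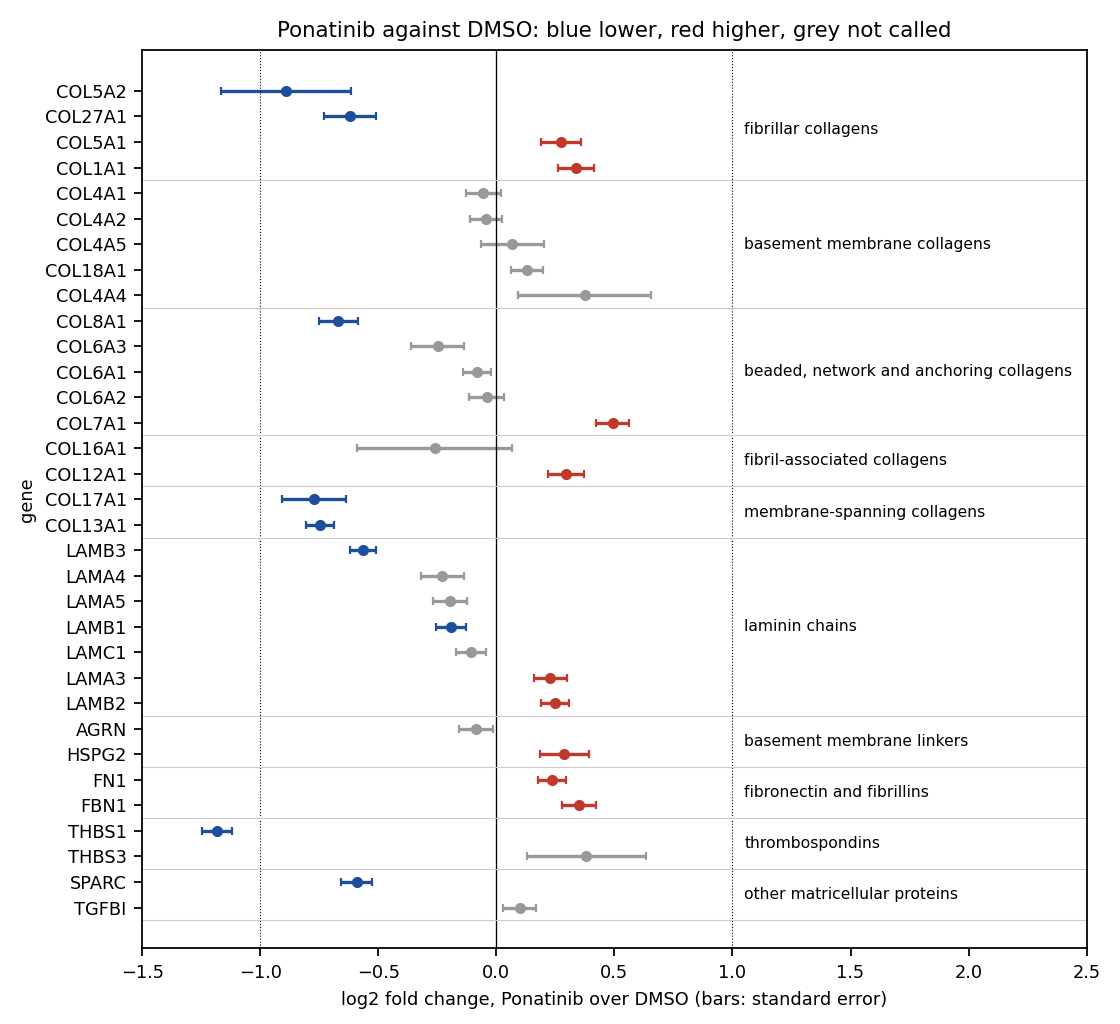
Log2 fold change of the 33 tested members with Ponatinib over DMSO, with bars for the standard error, grouped by role. Blue marks 9 members called lower, red 9 called higher and grey 15 not called. All 5 tested basement membrane collagens are grey.

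The second comparison asked how the same genes stood after knockdown of the ABL kinases. With 1 sample in each group the shRNA experiment has no replicates and gives no test of its own, and each value is a ratio to scrambled shRNA with a 95% interval for counting error only. THBS1 and COL1A1 were lower and COL17A1 and LAMB3 higher, by 1.795-fold or more in each of the 3 knockdown lines. The 3 ratios share the 1 scrambled shRNA sample. Where they agree, an effect of knockdown and a deviation of that sample cannot be told apart. With ABL1 shRNA 7 of the 38 kept members (18.4%) were past 2-fold, against 9.43% of 16329 genes (4.35% lower and 5.08% higher). They were COL1A1, COL1A2, COL3A1 and THBS1 on the lower side and COL17A1, LAMB3 and NID2 on the higher. With ABL2 shRNA 6 members (15.8%) were past 2-fold against 8.33% of genes (3.40% lower and 4.93% higher), COL3A1, COL12A1 and THBS1 lower and COL17A1, COL4A5 and NID2 higher. With both shRNAs 7 members (18.4%) were past 2-fold against 8.33% (3.52% lower and 4.81% higher), namely those of ABL1 shRNA. Of these members, COL3A1 passed the minimum of 10 counts only through the scrambled shRNA sample and NID2 only through ABL1 shRNA. COL3A1 could thus lie only on the lower side in each knockdown, and NID2 only on the higher side with ABL1 shRNA. Both count toward the shares above. Among genes with at least 100 counts in an shRNA sample, 4 of 30 members (13.3%) were past 2-fold in each knockdown, against 3.70%, 2.85% and 2.77% of genes with ABL1, ABL2 and both shRNAs. A fit of all 8 samples, which takes its spread from the DMSO and Ponatinib pairs, put 5 of 37 members in each knockdown past 2-fold at an adjusted p under 0.05, against 3.89%, 3.04% and 3.03% of 18275 genes, COL3A1 among the 5 each time. That spread comes from the other experiment and may be technical, so it does not measure how single shRNA lines differ. The adjusted p of this fit therefore cannot decide whether a member changed with knockdown, and no conclusion is drawn from it. COL3A1, which reached 10 counts only with scrambled shRNA, could again lie only on the lower side. The median log2 ratio of the 38 members was -0.10, 0.13 and -0.05 for ABL1, ABL2 and both shRNAs, and that of all genes lay between -0.0059 and 0.0029.

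**Figure D4:**
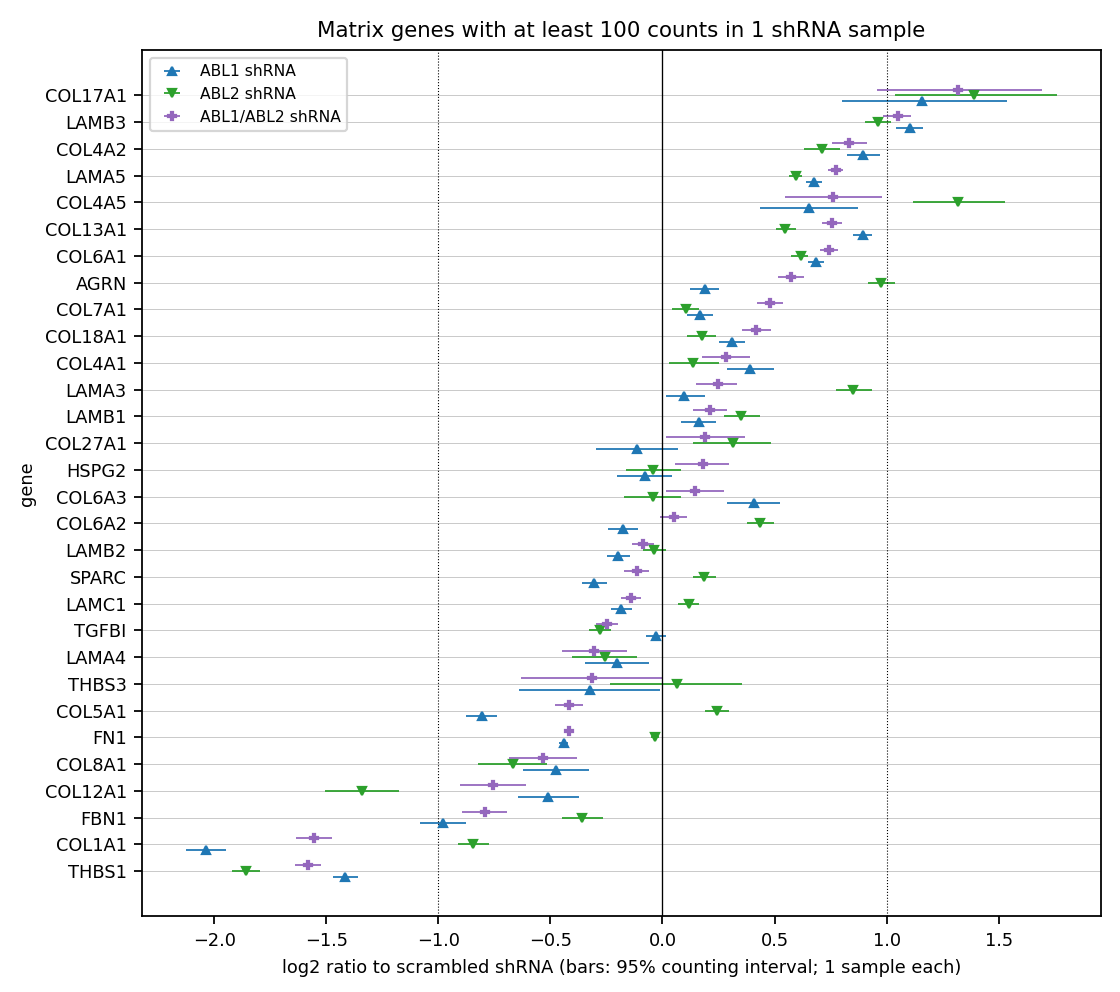
Log2 ratio to scrambled shRNA of the 30 members with at least 100 counts in an shRNA sample, with 95% counting intervals and 1 sample per point. COL17A1 and LAMB3 lie near or past 1 in each knockdown and THBS1 lies below -1 in each.

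The Ponatinib and knockdown experiments have separate controls, so their values can be set side by side. Of the 18 members called with Ponatinib, 6, 6 and 7 had a ratio on the same side of 0 for ABL1, ABL2 and both shRNAs. Of all 4763 called genes with a knockdown ratio, 47.3%, 51.6% and 44.7% did. The lower call of THBS1 and COL8A1 stood beside lower ratios in each knockdown, while COL13A1, COL17A1, LAMB3 and LAMB1 fell with Ponatinib and were higher in each knockdown. COL1A1, COL12A1, FBN1, LAMB2 and FN1 rose with Ponatinib and were lower in each knockdown. For LAMB2 and FN1 the log2 ratios with ABL2 shRNA were only -0.04 and -0.03. COL7A1 and LAMA3 rose with Ponatinib and were higher in each knockdown. The differences between the drug and the knockdowns were not tested.

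Fibrillar collagens were split within the drug experiment. COL1A1, on chromosome 17 from 50184101 to 50201632 (hg38), was at 64.17 and 62.38 normalized CPM in DMSO and at 84.05 and 75.36 in Ponatinib. The groups did not overlap, and the log2 fold change with its standard error (SE) was 0.34 (SE 0.08, edgeR adjusted p = 0.0033), which lost the call without DMSO 2. COL5A1, a chain of the type V collagen that starts and limits type I fibrils, went from 50.63 and 58.43 to 63.32 and 68.59 normalized CPM, a log2 change of 0.27 (edgeR adjusted p = 0.024). Its partner COL5A2 went the other way, from 3.452 and 4.355 to 2.187 and 1.952 normalized CPM, a log2 change of -0.89 (SE 0.28, edgeR adjusted p = 0.023). COL5A2 rests on 15 to 43 counts per sample, and neither type V chain was called by DESeq2. COL27A1, a fibrillar collagen of cartilage, fell from 29.92 and 32.21 to 19.01 and 21.61 normalized CPM (log2 fold change -0.62, SE 0.11, edgeR adjusted p = 0.000501).

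Among the shRNA lines COL1A1 was again the fibrillar collagen with the highest level per kb in the control. It was at 407.0 normalized CPM with scrambled shRNA and at 99.15, 226.7 and 138.6 with ABL1, ABL2 and both shRNAs. This was 4.105-fold lower with ABL1 shRNA (95% counting interval 3.86 to 4.37), 1.795-fold lower with ABL2 shRNA (1.71 to 1.88) and 2.936-fold lower with both (2.78 to 3.11), so the interval with ABL2 shRNA did not reach those of the other lines. COL3A1, the type III collagen that accompanies type I in soft tissue, had 42 counts with scrambled shRNA and 3, 7 and 0 counts with ABL1, ABL2 and both shRNAs. These counts put it 15.34-fold lower (5.10 to 80.6) with ABL1 shRNA, 6.541-fold lower (2.96 to 17.5) with ABL2 shRNA and, against the floor of 3 counts per library, at least 15-fold lower with both. COL1A2 had 18, 7, 17 and 7 counts in the same order, 2.898-fold lower with ABL1 shRNA (1.17 to 8.31) and 2.718-fold lower with both (1.10 to 7.78), and with ABL2 shRNA the interval of the ratio included 1. COL5A1 separated the knockdowns. It was at 396.6 normalized CPM with scrambled shRNA and at 226.7, 469.1 and 297.1 with ABL1, ABL2 and both shRNAs, which is lower in the lines that carried ABL1 shRNA and higher with ABL2 shRNA alone. COL5A2 and COL27A1 had log2 ratios between -0.65 and 0.31.

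Basement membrane collagens showed no call with Ponatinib in the 5 tested members. COL4A1 and COL4A2, the chains of the common type IV collagen, are transcribed in opposite directions from a shared stretch on chromosome 13, with 126 bases between their RefSeq start sites. COL4A1 was at 61.69 and 62.49 normalized CPM in DMSO and 58.38 and 61.30 in Ponatinib, and COL4A2 at 137.2 and 148.1 and at 140.3 and 136.0. The groups lay close together without overlap for COL4A1 and overlapped for COL4A2. The log2 fold changes were -0.06 (95% interval -0.21 to 0.10) for COL4A1 and -0.04 (-0.18 to 0.10) for COL4A2. The stretch between the start sites holds 1 match to the SP1 motif GGGCGG, here in capitals, and is shown because both genes are read from it.
COL4A1-COL4A2, GRCh38.p14 chr13:110307158-110307283, + strand: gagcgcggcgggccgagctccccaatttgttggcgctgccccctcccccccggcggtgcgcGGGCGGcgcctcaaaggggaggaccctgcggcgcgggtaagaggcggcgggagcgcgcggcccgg

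In the shRNA experiment COL4A1 and COL4A2 stood further apart in the knockdown lines than in the single scrambled shRNA sample. COL4A2 was at 188.4 normalized CPM with scrambled shRNA and at 350.5, 308.7 and 335.4 with ABL1, ABL2 and both shRNAs, higher by 1.860-fold, 1.639-fold and 1.780-fold with intervals between 1.55 and 1.96. COL4A1 was at 105.0, 137.5, 115.3 and 127.9 normalized CPM, higher by 1.310-fold, 1.099-fold and 1.218-fold. Per kb, COL4A1 over COL4A2 was 0.732 with scrambled shRNA and 0.491 to 0.516 in the knockdown lines, beside 0.547 to 0.592 in the drug experiment. The annotated ends of these genes overlap on opposite strands, and whether the counting used strand is not given in the sources used here. COL4A5, on chromosome X, was at 23.68, 37.27, 59.09 and 40.12 normalized CPM, highest with ABL2 shRNA at 2.494-fold over scrambled shRNA (2.17 to 2.88). Its neighbour COL4A6 had 19 to 34 counts in the shRNA lines with intervals of the ratio that included 1. COL4A4, a chain of the type IV collagen of kidney and lung, had 19 to 31 counts per sample in both experiments, and its partner COL4A3 was dropped. COL18A1, the source of endostatin, had a log2 fold change of 0.13 with Ponatinib (edgeR adjusted p = 0.17) and log2 ratios of 0.31, 0.18 and 0.42 in the knockdowns.

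COL7A1, on chromosome 3 from 48564073 to 48595329, encodes the anchoring fibrils that fasten the basement membrane of stratified epithelia. It was at 144.3 and 150 normalized CPM in DMSO and 196.1 and 218.3 in Ponatinib. Both Ponatinib samples were above both DMSO samples, with a log2 change of 0.49 (SE 0.07, edgeR adjusted p = 6.2e-05). With scrambled, ABL1, ABL2 and both shRNAs it was at 401.8, 451.5, 432.1 and 560.7 normalized CPM, highest with both shRNAs at 1.395-fold (1.34 to 1.45). COL8A1, a short-chain network collagen, fell from 54.79 and 52.76 to 34.04 and 33.58 normalized CPM with Ponatinib (log2 fold change -0.67, SE 0.08, edgeR adjusted p = 2.2e-05). It was also lower in the knockdowns, by 1.390-fold (1.26 to 1.54), 1.589-fold (1.43 to 1.77) and 1.446-fold (1.30 to 1.61) with ABL1, ABL2 and both shRNAs.

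Type VI collagen, whose 3 main chains form beaded filaments, was not called with Ponatinib in any chain. COL6A1 was at 372.5 and 396.0 normalized CPM in DMSO and 361.6 and 365.1 in Ponatinib (log2 fold change -0.08, 95% interval -0.21 to 0.05), and COL6A2 had a log2 fold change of -0.04 (-0.20 to 0.12). COL6A3 had the lowest of the 3 values, -0.25 (edgeR adjusted p = 0.11), and passed the threshold when Ponatinib 1 was left out. In the shRNA lines COL6A1 was at 839.7 normalized CPM with scrambled shRNA and at 1350, 1287 and 1406 with ABL1, ABL2 and both shRNAs, 1.608-fold, 1.533-fold and 1.674-fold higher. COL6A2 was at 324.4, 286.9, 438.8 and 336.4, highest with ABL2 shRNA at 1.352-fold (1.30 to 1.41) and lowest with ABL1 shRNA. The per-kb ratio of COL6A1 to COL6A2 therefore varied, from 2.49 with scrambled shRNA and 2.83 with ABL2 shRNA to 4.53 with ABL1 shRNA, beside 4.26 to 4.54 in the drug experiment.

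Of the collagens that coat fibrils, COL12A1 rose with Ponatinib from 185.8 and 176.2 to 203.1 and 242.2 normalized CPM (log2 fold change 0.29, edgeR adjusted p = 0.0095), a call lost without DMSO 2. With scrambled, ABL1, ABL2 and both shRNAs it was at 87.52, 61.50, 34.60 and 51.82 normalized CPM, lowest with ABL2 shRNA at 2.529-fold below scrambled shRNA (2.26 to 2.84). COL16A1 had 18 to 60 counts per sample and was not called.

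The membrane-spanning collagens COL13A1 and COL17A1 are anchored in the plasma membrane, and COL17A1 is a component of hemidesmosomes, the junctions that bind laminin-332. COL13A1 was at 527.3 and 554.9 normalized CPM in DMSO and 328.2 and 315.9 in Ponatinib, and COL17A1 at 17.88 and 18.84 and at 10.27 and 11.32. Both fell, COL13A1 by 0.75 on the log2 scale (SE 0.06, edgeR adjusted p = 2.5e-07) and COL17A1 by 0.77 (SE 0.13, edgeR adjusted p = 0.00047). In the shRNA lines COL13A1 was at 575.0 normalized CPM with scrambled shRNA and 1068, 840.2 and 971.4 with ABL1, ABL2 and both shRNAs. COL17A1 was at 7.660 with scrambled shRNA and at 17.13, 20.12 and 19.11. Each knockdown line was above the scrambled shRNA sample for both genes, by 1.461-fold to 1.857-fold for COL13A1 and by 2.235-fold to 2.625-fold for COL17A1. For COL17A1, with 87 counts in scrambled shRNA, the intervals ran from 1.74 to 3.39 and overlapped among the 3 knockdowns.

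Laminin chains varied within single proteins. LAMB3 and LAMA3 encode the beta and alpha chains of laminin-332. LAMB3, on chromosome 1 from 209614870 to 209652425, was at 686.1 and 698.8 normalized CPM in DMSO and 469.1 and 466.9 in Ponatinib, a log2 change of -0.57 (SE 0.06, edgeR adjusted p = 2.4e-06). LAMA3 went from 89.75 and 94.99 to 104.1 and 112.8 normalized CPM (log2 fold change 0.23, edgeR adjusted p = 0.021), and this call was lost with DESeq2 and without either DMSO sample. Per kb, LAMB3 exceeded LAMA3 by 23.8-fold and 22.9-fold in DMSO and by 14-fold and 12.9-fold in Ponatinib, so the beta and alpha chains came closer together. The size of each ratio depends on the exon lengths used, 4647 bases for LAMB3 and 14488 for LAMA3, while the change with Ponatinib does not.

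In the knockdown lines LAMB3 was higher than with scrambled shRNA. It was at 282.5 normalized CPM in the scrambled shRNA sample and at 607.0, 550.5 and 584.5 in the ABL1, ABL2 and ABL1/ABL2 shRNA samples. The ratios were 2.148 (2.06 to 2.24), 1.948 (1.87 to 2.03) and 2.069 (1.98 to 2.16), so ABL2 shRNA fell just short of 2-fold and the other 2 lines just passed it. LAMA3 was at 160.2, 171.5, 289.2 and 190.0 normalized CPM, highest with ABL2 shRNA at 1.805-fold (1.71 to 1.91) against 1.070-fold with ABL1 shRNA and 1.186-fold with both.

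**Figure D5:**
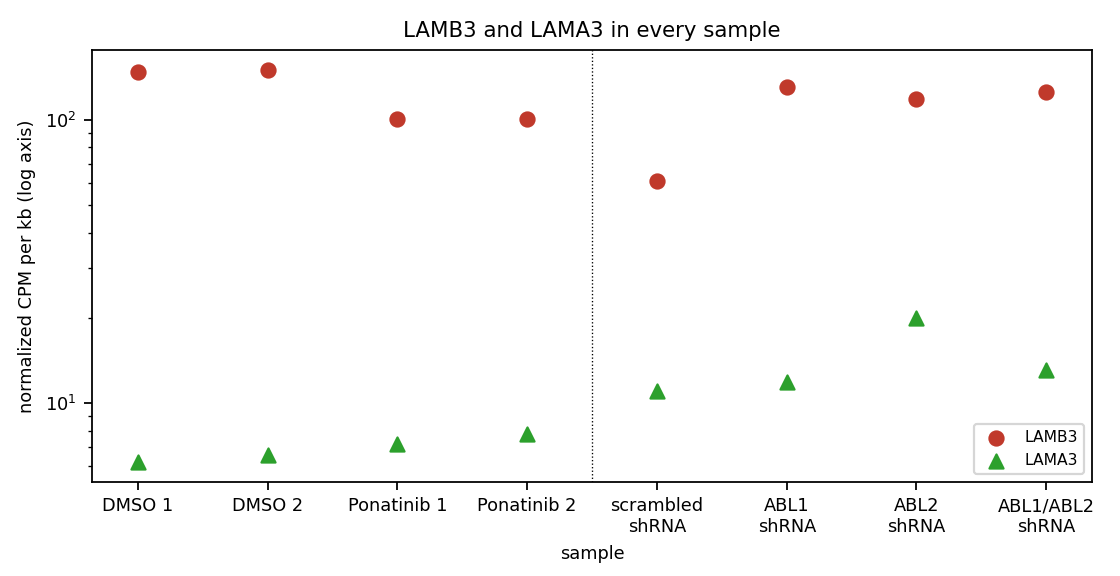
Normalized CPM per kb (log axis) of LAMB3 and LAMA3 in each sample, with the drug and shRNA experiments, normalized separately, on either side of the dotted line. LAMB3 is above LAMA3 in every sample, is lower in Ponatinib than in DMSO, and is lower with scrambled shRNA than in the knockdown lines.

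The promoters of LAMB3 and LAMA3 are shown because the 2 chains of 1 protein went in opposite directions with Ponatinib and because, of the 36 members with a RefSeq promoter entry, only these held the AP-1 motif TGANTCA in the 250 bases before a start site. LAMB3 held it at 1 of its 3 RefSeq starts. The motif was in 4.8% of the 42 windows of members and in 6.6% of 35116 promoters of that length. Both windows shown lie inside the annotated gene bounds, which run from 209614870 to 209652425 for LAMB3 and from 23689453 to 23956222 for LAMA3. Capitals mark matches on either strand to AP-1, SP1 (GGGCGG) or SMAD (CAGACA) motifs. The SMAD motif was in 6 members, that is in 14.3% of the 42 windows, and in 13.6% of all promoters.
LAMB3, GRCh38.p14 chr1:209651375-209651624, - strand: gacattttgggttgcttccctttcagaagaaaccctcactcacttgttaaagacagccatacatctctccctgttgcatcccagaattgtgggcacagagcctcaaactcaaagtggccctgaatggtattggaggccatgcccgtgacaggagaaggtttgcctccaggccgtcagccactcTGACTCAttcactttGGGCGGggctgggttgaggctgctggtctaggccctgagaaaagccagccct
LAMA3, GRCh38.p14 chr18:23872770-23873019, + strand: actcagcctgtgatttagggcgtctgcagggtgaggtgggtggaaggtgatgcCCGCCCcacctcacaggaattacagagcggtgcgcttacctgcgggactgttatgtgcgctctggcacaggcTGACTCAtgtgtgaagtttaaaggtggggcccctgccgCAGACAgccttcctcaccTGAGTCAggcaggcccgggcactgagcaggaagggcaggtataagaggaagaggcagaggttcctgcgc
The LAMB3 window holds 1 AP-1 match and 1 SP1 match, and the LAMA3 window holds 2 AP-1 matches, 1 SP1 match and 1 SMAD match. The SP1 motif was in 27 of the 36 members, that is in 76.2% of their 42 windows, against 42.6% of all promoters, and was counted with no test.

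The remaining laminin chains moved little with Ponatinib. LAMB1, a beta chain of widespread laminins, was at 152.7 and 149.3 normalized CPM in DMSO and 130.3 and 134.3 in Ponatinib (log2 fold change -0.19, edgeR adjusted p = 0.031), and LAMB2 at 281.6 and 277.4 and at 328.1 and 336.4 (log2 fold change 0.25, edgeR adjusted p = 0.0047). Both lost the call without either DMSO sample, and LAMB1 lost it with DESeq2 too. Their gamma partner LAMC1 was at 397.9 and 394.1 and at 347.0 and 388.9 normalized CPM (log2 fold change -0.11, edgeR adjusted p = 0.23). LAMA4 and LAMA5 were not called, although LAMA5 at -0.20 (edgeR adjusted p = 0.054) passed the threshold in 4 alternatives. In the shRNA lines LAMA5 was at 1031 normalized CPM with scrambled shRNA and 1648, 1556 and 1762 with ABL1, ABL2 and both shRNAs, 1.599-fold, 1.510-fold and 1.710-fold higher. LAMA4, LAMB1, LAMB2 and LAMC1 had log2 ratios between -0.30 and 0.35.

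Perlecan and agrin, encoded by HSPG2 and AGRN, are heparan sulfate proteoglycans that link the laminin and collagen networks. HSPG2 was at 45.05 and 42.43 normalized CPM in DMSO and 47.25 and 60.78 in Ponatinib. Its call (log2 fold change 0.29, edgeR adjusted p = 0.0498) was lost with DESeq2 and without DMSO 1, DMSO 2 or Ponatinib 2, and without Ponatinib 2 the log2 fold change was 0.11. AGRN was not called with Ponatinib (log2 fold change -0.09, edgeR adjusted p = 0.40). Among the shRNA lines AGRN was at 334.7, 381.8, 659.1 and 498.7 normalized CPM, highest with ABL2 shRNA at 1.969-fold (1.89 to 2.05) and at 1.141-fold with ABL1 shRNA. NID2, a nidogen, had 1, 11, 5 and 9 counts, and the intervals of its ratio ran from 1.40 to 415 with ABL1 shRNA, from 0.505 to 214 with ABL2 shRNA, which includes 1, and from 1.17 to 369 with both.

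Fibronectin, the fibril protein that collagen and integrins bind, rose slightly with Ponatinib. FN1, on chromosome 2 from 215360440 to 215436073, was at 401.2 and 410.1 normalized CPM in DMSO and 466.3 and 489.6 in Ponatinib (log2 fold change 0.24, SE 0.06, edgeR adjusted p = 0.0067). FBN1, the fibrillin of elastic microfibrils, was at 96.92 and 102.2 and at 120.1 and 134.7 (log2 fold change 0.35, edgeR adjusted p = 0.0018). FN1 lost the call without either DMSO sample and FBN1 without DMSO 1. With scrambled, ABL1, ABL2 and both shRNAs FN1 was at 4224, 3114, 4126 and 3160 normalized CPM, 1.357-fold lower with ABL1 shRNA (1.34 to 1.37) and 1.337-fold lower with both (1.32 to 1.35). With ABL2 shRNA its log2 ratio was -0.03, and 0.01 when samples were scaled by library totals only. FBN1 was at 185.0, 93.98, 144.4 and 106.8 normalized CPM, 1.968-fold (1.83 to 2.11), 1.281-fold (1.20 to 1.36) and 1.733-fold (1.62 to 1.86) lower with ABL1, ABL2 and both shRNAs. Both genes were lower in the lines carrying ABL1 shRNA than in the line carrying ABL2 shRNA alone.

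FN1 also set the 2 experiments apart. It took 394 to 497 CPM of all counts in the drug experiment and 3100 to 4160 in the shRNA experiment, so the lowest shRNA sample was 6.24 times the highest drug sample. The lowest shRNA sample was above the highest drug sample for 25 of the 38 kept members and for 20.5% of 18387 genes with at least 10 counts in 1 of the 8 samples. COL5A1 and COL6A2, next after FN1 by this ratio with COL6A2 at 3.32 and COL5A1 at 3.24, were among the 25. The opposite order held for COL12A1, with the lowest drug sample 2.02 times the highest shRNA sample, and for COL4A4, and for 26.5% of those genes. All 44 members together took 0.505% to 0.569% of counts in the drug experiment and 1.33% to 1.52% in the shRNA experiment, or 0.458% to 0.529% and 0.918% to 1.11% without FN1. These values are shares of each library, and the experiment, the viral infection and the library set cannot be told apart.

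THBS1, on chromosome 15 from 39581079 to 39599466, encodes thrombospondin 1, which inhibits angiogenesis and activates latent TGF-beta. It was at 330.5 and 317.1 normalized CPM in DMSO and 138.0 and 147.5 in Ponatinib. The fall was 2.273-fold (log2 fold change -1.18, SE 0.06, edgeR adjusted p = 3.2e-09), and with any single sample of the 4 removed it stayed between -1.23 and -1.13 on the log2 scale. In the shRNA lines it was at 763.9 normalized CPM with scrambled shRNA and at 286.3, 210.6 and 255.2 with ABL1, ABL2 and both shRNAs. These are 2.668-fold (2.57 to 2.77), 3.627-fold (3.47 to 3.79) and 2.993-fold (2.87 to 3.12) lower, and THBS1 was the member with at least 100 counts that was past 2-fold on the lower side in each knockdown. Its promoter is shown for that reason, with matches to the TEAD motif GGAATG and to SP1 on either strand in capitals. It holds 1 TEAD match and 4 SP1 matches. The TEAD motif was in 5 of the 36 members, that is in 11.9% of their 42 windows, and in 11.9% of all promoters.
THBS1, GRCh38.p14 chr15:39580829-39581078, + strand: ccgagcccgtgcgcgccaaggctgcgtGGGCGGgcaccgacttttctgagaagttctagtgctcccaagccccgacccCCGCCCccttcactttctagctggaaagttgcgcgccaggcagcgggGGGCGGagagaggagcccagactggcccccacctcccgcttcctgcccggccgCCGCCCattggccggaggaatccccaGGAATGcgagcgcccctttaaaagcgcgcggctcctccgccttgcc

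The related THBS3 had 30 to 43 counts per sample in the drug experiment and was not called, and THBS2 had 2 to 12 counts there and was not tested. SPARC, a collagen-binding matricellular protein, fell with Ponatinib from 244.7 and 261.8 to 175.4 and 159.8 normalized CPM (log2 fold change -0.59, SE 0.07, edgeR adjusted p = 9.2e-06). With scrambled, ABL1, ABL2 and both shRNAs it was at 460.3, 372.8, 523.5 and 425.0 normalized CPM, within 1.235-fold of scrambled shRNA on either side. TGFBI, a TGF-beta-induced adhesion protein, had a log2 fold change of 0.10 with Ponatinib (edgeR adjusted p = 0.31) and log2 ratios of -0.03, -0.28 and -0.25 in the knockdowns.

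Other matrix genes were taken from lists written by hand. With Ponatinib 8 of 31 other matrix glycoproteins were called (25.8%), 4 lower and 4 higher, against 30.7% of all genes. The lower ones were CTGF (log2 fold change -2.92), CYR61 (-1.59), TINAGL1 (-0.79) and EMILIN2 (-0.38), the first pair being matricellular proteins of the CCN family, and the higher ones were NOV (0.67), LTBP3 (0.48), EDIL3 (0.43) and LTBP1 (0.21). None of 2 other collagens, 3 genes for other laminin chains or netrins (LAMA1, LAMA2 and NTN4) and 2 other proteoglycans was called. Of 7 genes for collagen folding and procollagen cleavage, MIA3 (0.50), which loads procollagen for export, and BMP1 (0.48), which cleaves its C-propeptide, were higher and none was lower. Of 9 cell surface receptors of collagen and laminin outside the integrins, SDC2 (1.02) and the collagen receptor DDR1 (0.61) were higher and CD44 (-0.41), SDC1 (-0.36) and SDC4 (-0.26) lower. The 2 of 7 and 5 of 9 are 28.6% and 55.6% beside the same 30.7%. Of the 31 other matrix glycoproteins, 4, 3 and 5 (12.9%, 9.68% and 16.1%) were past 2-fold with ABL1, ABL2 and both shRNAs, against 9.43%, 8.33% and 8.33% of all genes, with CYR61 among them on the lower side in each (log2 ratios -1.24, -1.87 and -1.39). Of 8 other collagens 5, 0 and 3 (62.5%, 0% and 37.5%) were, most of them with under 100 counts in every sample. The numbers were 0, 1 and 0 of 4 genes for other laminin chains or netrins and 0, 1 and 0 of 3 other proteoglycans. The 1 gene of the former list was the netrin NTN1, with 20 counts in scrambled shRNA and 8 in ABL2 shRNA. They were 0, 2 and 1 of 8 folding and cleavage genes and 1, 1 and 1 of 10 receptors.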

How the data were processed

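RNA from 8 LM2 samples was sequenced from NEBNext Ultra libraries on an Illumina HiSeq instrument. The authors mapped reads to hg38 with TopHat, counted them with HTSeq 0.6.0 per the labels, and deposited the raw counts, not normalized, as a gene table for each sample. Counting settings and the annotation release are not given in the sources used here. The shRNA files also hold summary rows (9.48% to 9.9% of reads without a feature, 6.12% to 6.32% ambiguous), which were left out.

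The quasi-likelihood test of edgeR 4.0.16 (R 4.3.3), after filterByExpr and TMM, was run on the 4 DMSO and Ponatinib samples, with Benjamini-Hochberg adjustment over 16031 genes. Knockdowns were compared as TMM-normalized ratios (prior count 0.125) among 16329 genes with at least 10 counts in 1 shRNA sample, with exact conditional binomial 95% intervals that cover counting error only. Intervals of Ponatinib fold changes used the t distribution at the degrees of freedom of the edgeR fit. The drug and shRNA sets were normalized separately. Positions and exon lengths are from GENCODE v44 and promoters from RefSeq. An exon length is the union of all annotated exons of a gene, which can exceed the length of the transcript expressed. Rankings and ratios between genes per kb depend on it. The scripts were tested on simulated data. Alternatives were DESeq2 1.42.0, other filters, scalings and prior counts, a fit of all 8 samples, the replicate block and leaving out each drug sample. The DMSO pair and the Ponatinib pair differed by more than sampling noise (chi-square per degree of freedom 1.441 and 3.125).

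The members, lists and rules were chosen with earlier results of these data known. Values per sample were given for members called with Ponatinib, members past 2-fold in a knockdown, the 8 highest per kb in DMSO and their partner chains. Genes of the other lists were named where called with Ponatinib, at most 4 per list and direction, and further members were added after their values were seen. A further gene was left out of the other lists and is not reported here.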

Additional observations from a re-analysis of the deposited data

How the results depend on the processing

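Of the members called with Ponatinib, 18 in the fit reported, 13 were called with DESeq2's Wald test, 20 with no filter on low counts and 21 in a fit of all 8 samples. Leaving out 1 sample gave 10 to 22 called members and 3 to 9 called higher, with the fewest when a DMSO sample was left out. Members past the fold and P thresholds, 1 in the fit reported, numbered 4 with no filter, 3 in the fit of all 8 samples and 1 to 3 with a sample left out. Of the other matrix lists together, 15 genes were called in the fit reported and 12 to 23 with a sample left out. No log2 fold change of a called member changed sign. With at least 100 counts required, members past 2-fold went from 7 to 4 with ABL1 shRNA and from 7 to 4 with both shRNAs, and with no minimum from 6 to 10 with ABL2 shRNA. The fewer genes tested explain the first pair by construction, and the causes of the others were not tested. The repeat numbers did not pair the samples (r = 0.0211, computed across 13216 genes that are no replicates), and the replicate block gave 19 called members. Members with under 50 counts per drug sample, such as COL5A2, COL16A1, COL4A4 and THBS3, had standard errors of 0.25 to 0.33, which limits what could be detected.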
